A study of Mus musculus with 9 samples.

Results

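The genes described here are 7 enzymes of cholesterol synthesis, *Hmgcs1*, *Idi1*, *Fdps*, *Fdft1*, *Sqle*, *Lss* and *Cyp51*. They were taken as a named list of pathway members, not by a threshold on their values, and are 7 of the 55450 genes counted in the series. All 7 passed the filter on low counts, a mean of at least 5 read pairs, as did 19371 genes in all.

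RNA was sequenced from mouse Rathke’s pouch, the embryonic epithelium that forms the anterior and intermediate lobes of the pituitary, and from the adult gland, to compare gene expression between the stages. The 7 embryo libraries came from *Sox2Egfp/+* animals at embryonic day 13.5 (e13.5), which carry a reporter in place of 1 *Sox2* allele, and the 2 adult libraries from the gland at postnatal week 8 after removal of the posterior lobe. Both stages have the strain label 129Sv/c57BL6J, no *Sox2* allele is given for the adults, and both sexes were used without a sex being given for each library. The embryo libraries held 16738863 to 28537311 read pairs counted on genes and the adult libraries 36421545 and 31191117. With a single adult pair, the spread among adults rests on 1 difference.

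Cholesterol is built from acetyl-CoA. *Hmgcs1* and the enzymes that follow it make mevalonate and then isoprenoid units, which are joined to farnesyl diphosphate and squalene, and squalene is oxidised, closed to lanosterol and trimmed to cholesterol. Transcription of the pathway is driven by the transcription factor SREBP-2, whose release depends on sterol levels, and the product serves membranes in dividing and secretory cells, Hedgehog protein modification in the embryo and the secretory granules of the endocrine pituitary.

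The tissue labels were first set against markers. The 10 pouch genes summed to 836 to 1906 CPM (counts relative to library size, scaled by the TMM method) in the embryos and to 767 and 688 CPM in the adults, and *Hesx1*, an early pouch repressor, ran from 11.0 to 40.4 CPM in the embryos against 0.339 and 0.562 CPM in the adults. *Hesx1* had the largest log2 fold change of the pouch genes (5.77). At an adjusted p-value below 0.05, 6 of the 10 were higher in the embryo, 1 was higher in the adult and 3 did not pass. Without embryos 1 and 4, 7 were higher in the embryo and 0 in the adult. *Sox2*, the gene with the reporter allele, ran from 26.5 to 44.8 CPM in the embryos and was at 64.1 and 56.8 CPM in the adults. The 8 hormone lineage genes made up 0.0991% to 0.157% of what was counted in the embryo libraries, and 17.3% and 18.3% in those of the adults. *Rax* and *Nkx2-1*, genes of the ventral diencephalon and infundibulum, were detected in all embryos (29.2 to 92.8 CPM and 13.0 to 41.6 CPM) and were at 2.11 CPM or less in the adults. They are the 2 of 8 tested neural and posterior lobe genes that were higher in the embryo, while 4 were higher in the adult, and the sum over the list, 178 and 176 CPM in the adults, lay within the 122 to 379 CPM of the embryos. Without embryos 1 and 4, or with erythroid genes taken out before scaling, 2 were higher in the adult. In bulk RNA, fewer cells of a type and less RNA per cell cannot be told apart.

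The libraries of embryos 1 and 4 stood apart. The 8 erythroid genes, with *Hbb-y*, an embryonic globin, as the most abundant in the embryos, took 14.6% and 16.8% of their counted read pairs. The remaining embryos had 0.771% to 2.06% and the adults 0.0864% and 0.226%. None of the 8 was at 0 in any library. In embryos 1 and 4 the share of read pairs assigned to a gene was 59.7% and 62.8%, where the remaining embryos had 73.9% to 80.0%. Unmapped pairs made up 10.3% and 4.74% there, against 0.863% to 2.54% in the remaining embryos. Multimapping pairs made up 21.7% and 26.1%, against 14.1% to 19.7%. Values without both libraries are therefore given for each of the 7 genes.

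Of the 7 genes, 2 had a higher level in the adult at an adjusted p-value below 0.05, *Hmgcs1* and *Lss*, a share of 28.6% beside 27.4% of all genes tested. None was higher in the embryo, beside 24% of all genes. With a fold change above 4 as a further threshold, none of the 7 passed in either direction, beside 11.3% (embryo) and 14.6% (adult) of all genes. These counts of 0 from edgeR’s quasi-likelihood test were also 0 at an unadjusted p-value below 0.05 and in DESeq2. With only 7 genes, a count of 0 cannot be told apart from these shares of all genes. The 7 genes had a median log2 fold change, embryo over adult, of −0.43, beside −0.040 over all genes tested. This median was −0.27 without embryo 1 and −0.19 without embryos 1 and 4, where the medians over all genes were −0.0046 and −0.055. With a block for replicates 1 and 2, fitted on the libraries of those replicates alone, the median of the 7 genes was −0.86, beside −0.25 over all genes. The block and the libraries changed together there.

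**Figure D1:**
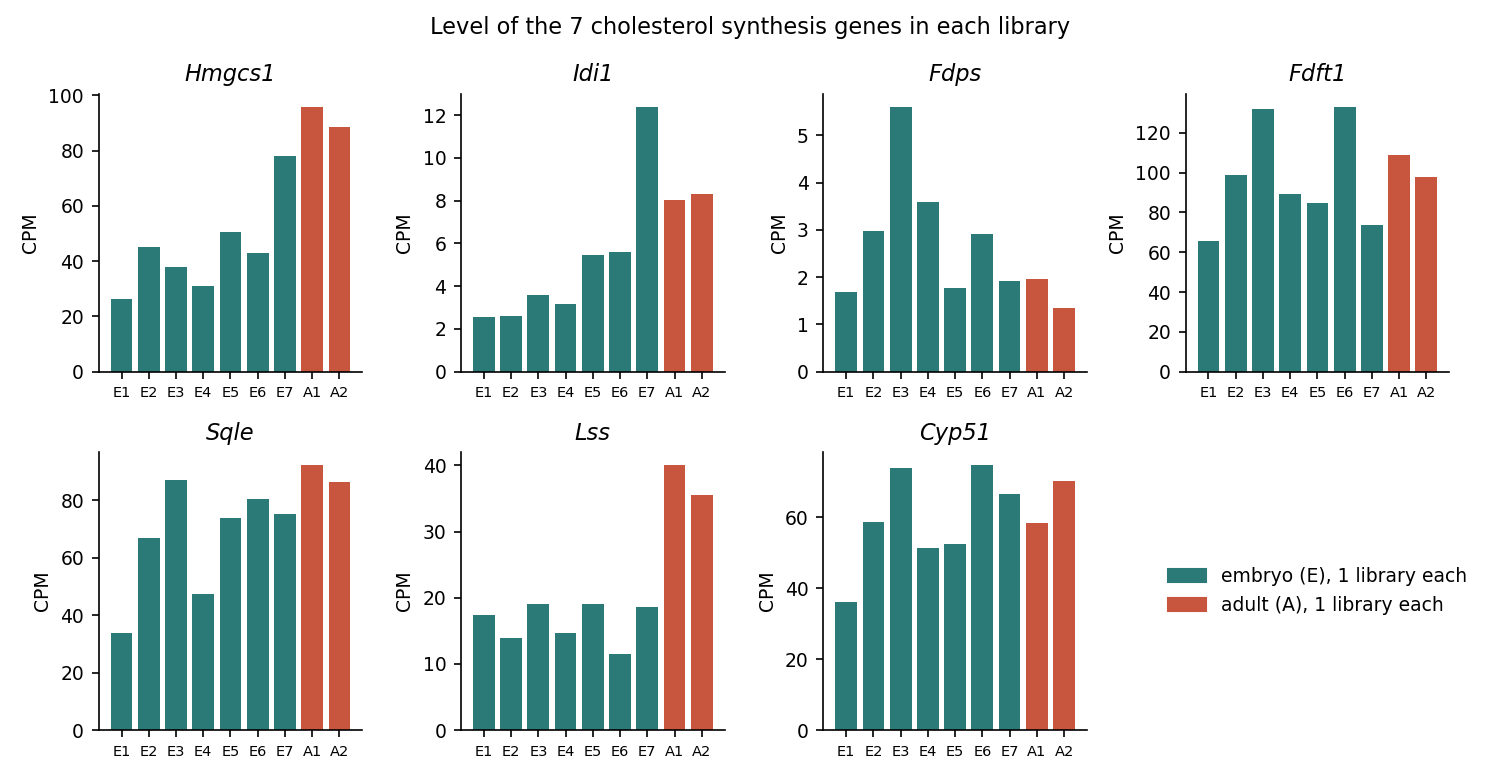
Level of each of the 7 genes, in CPM on a linear axis from 0, in the 7 embryo (E) and 2 adult (A) libraries, 1 bar a library. For *Hmgcs1* and *Lss* both adults stand above all 7 embryos, and for *Idi1* embryo 7 (12.4 CPM) stands above both adults.

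*Hmgcs1* (ENSMUSG00000093930, chr13:119690379-119708260) encodes the cytosolic synthase that makes HMG-CoA, the precursor of mevalonate. Its level in the embryos was 26.3 CPM at the lowest, 42.8 CPM at the median and 78.1 CPM at the highest, and it was 95.9 and 88.4 CPM in the adults. All 7 embryos lay below both adults, with embryo 1 the lowest and embryo 7 the highest. The log2 fold change, embryo over adult, was −1.05 (SE 0.32, adjusted p = 0.0149), and −0.83 (adjusted p = 0.0277) without embryos 1 and 4. After correction for transcript length and GC content it was −0.43 (adjusted p = 0.204), so the call was lost. It was also lost without adult 1 (−1.01, adjusted p = 0.0972) and without adult 2 (−1.12, adjusted p = 0.0688).

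Because *Hmgcs1* and *Lss* were the genes that passed, the sequence before their transcription start is shown, from RefSeq (GRCm38.p6, plus strand for both, the 250 bases before the start). Entries were found for 4 of the 7 genes, *Hmgcs1*, *Idi1*, *Lss* and *Cyp51*. The table used held no match by symbol for *Sqle*, *Fdps* and *Fdft1*. Capitals mark matches, on either strand, to TCACNCCAC (a form of the sterol regulatory element), CCAAT (the NF-Y box) and GGGCGG (the GC box of Sp1). The windows are chr13:119690101-119690350 for *Hmgcs1* and chr10:76531355-76531604 for *Lss*.
Hmgcs1: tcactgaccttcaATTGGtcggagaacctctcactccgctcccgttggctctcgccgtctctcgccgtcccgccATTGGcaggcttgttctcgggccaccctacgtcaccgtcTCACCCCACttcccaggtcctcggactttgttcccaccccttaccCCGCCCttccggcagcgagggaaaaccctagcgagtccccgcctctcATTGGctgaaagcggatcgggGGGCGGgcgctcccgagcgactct
Lss: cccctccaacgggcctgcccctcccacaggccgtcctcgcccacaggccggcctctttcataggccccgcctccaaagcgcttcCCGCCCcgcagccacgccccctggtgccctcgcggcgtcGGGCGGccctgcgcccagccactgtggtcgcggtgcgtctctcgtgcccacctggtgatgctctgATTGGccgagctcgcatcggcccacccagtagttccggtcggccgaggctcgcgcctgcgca
The *Hmgcs1* window holds the sterol element form once, 137 to 129 bases before the start, with 3 CCAAT and 2 GGGCGG matches, and the *Lss* window holds 1 CCAAT and 2 GGGCGG matches. Of 32851 windows of this length in the RefSeq table, some genes having several, 1.05% hold TCACNCCAC, 33.8% CCAAT, 32.7% GGGCGG, and 11.0% both of the latter. The 4 windows of the 7 genes all hold both CCAAT and GGGCGG, with 2 and 1 matches in *Idi1* and 1 and 1 in *Cyp51*. Of the other enzymes with an entry, 10 of 13 hold both. A match in letters is a description only.

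*Idi1* (ENSMUSG00000058258, chr13:8885501-8892451) encodes the isomerase that turns isopentenyl diphosphate into dimethylallyl diphosphate. It ran from 2.56 CPM over a median of 3.57 CPM to 12.4 CPM in the embryos and was 8.05 and 8.32 CPM in the adults. The highest value of all 9 libraries was that of embryo 7, the other 6 embryos lay below both adults, and the groups overlapped. Embryo over adult, the log2 fold change was −0.69 (SE 0.53, adjusted p = 0.292). Without embryos 1 and 4 it was −0.43 and did not pass. Without embryo 7 it was −1.09 and passed (adjusted p = 0.0401). Of the 2953 words of 75 bases, the read length, in its transcript, 20.7% also occur in 4 other genes elsewhere in the genome, none of them protein coding, so read pairs from that stretch that matched equally well were not counted.

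*Fdps* (ENSMUSG00000059743, chr3:89093588-89101959) encodes farnesyl diphosphate synthase, which joins the isoprenoid units. Its level was 1.68 CPM, 2.92 CPM and 5.60 CPM at the lowest, the median and the highest in the embryos, and 1.96 and 1.35 CPM in the adults. The stages overlapped, with 4 embryos above both adults and embryo 3 the highest. With an SE of 0.57, the log2 fold change was 0.82 (adjusted p = 0.243), and it took the opposite sign, −0.38 (adjusted p = 0.506), after the length and GC correction. Without embryos 1 and 4 it was 0.89 (adjusted p = 0.161). These rest on 23 to 138 read pairs a library. Of the bases of its transcript, 81.3% are shared on the same strand with exons of *Gm43738*, a read-through gene that itself had a mean count of 0, and read pairs that lie in both are set aside as ambiguous. Its words of 75 bases also occur in 4 genes elsewhere for 32.7% of its length. The count therefore covers a small stretch of the transcript, and the level of *Fdps* is not comparable with that of the other genes.

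*Fdft1* (ENSMUSG00000021273, chr14:63145150-63179578) encodes squalene synthase, the first step that leads to sterols alone. Embryo 1 was lowest of the embryos with 65.8 CPM, the median was 89.4 CPM and embryo 6 was highest with 133 CPM, while the adults were at 109 and 97.9 CPM. Both adults lay within the range of the embryos, 4 of which were below both adults and 2 above. The stages differed by −0.093 on the log2 scale (SE 0.29, adjusted p = 0.809), and by 0.039 without embryos 1 and 4. Of its transcript, 20.9% overlaps *Ctsb*, which is read from the opposite strand and was separated by the strand-specific count.

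*Sqle* (ENSMUSG00000022351, chr15:59315077-59331192) encodes squalene epoxidase, a rate-limiting oxygen-dependent step. Its level was 33.7 CPM at the lowest, 73.7 CPM at the median and 87.2 CPM at the highest in the embryos, and 92.2 and 86.4 CPM in the adults. Embryos 1 and 4 were the lowest libraries, embryo 3 lay between the adults and the other 6 embryos lay below both. The log2 fold change was −0.43 (SE 0.31, adjusted p = 0.267), and −0.19 without embryos 1 and 4. After the length and GC correction it was −0.63 and passed (adjusted p = 0.0219). Its transcript shares no word of 75 bases with another gene.

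*Lss* (ENSMUSG00000033105, chr10:76531588-76557138) encodes lanosterol synthase, which closes the sterol rings. The embryos lay between 11.5 CPM (embryo 6) and 19.0 CPM (embryo 3) with a median of 17.4 CPM, and the adults were at 40.0 and 35.5 CPM. The highest embryo was well under the lower adult, and embryo 1 was at the median of the embryos. The log2 fold change was −1.21 (SE 0.26, adjusted p = 0.0016). It was −1.17 (adjusted p = 0.00346) without embryos 1 and 4 and −0.88 (adjusted p = 0.00422) after the length and GC correction. Apart from the test against a fold of 4, *Lss* was the gene of the 7 that passed under every alternative tried, with log2 fold changes from −1.41 to −0.88 and adjusted p-values up to 0.0325.

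*Cyp51* (ENSMUSG00000001467, chr5:4081145-4104746) encodes the cytochrome P450 that removes the methyl group at carbon 14 of lanosterol. The lowest embryo (1) had 36.0 CPM, the median was 58.7 CPM and the highest embryo (6) had 74.6 CPM, with 58.3 and 70.2 CPM in the adults. The groups overlapped, with 3 embryos below both adults and 2 above. On the log2 scale the fold change was −0.12 (SE 0.28, adjusted p = 0.739), 0.045 (adjusted p = 0.886) without embryos 1 and 4, and 0.43 (adjusted p = 0.149) after the length and GC correction.

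Levels between the genes were compared as CPM per kilobase of transcript. In the embryos *Fdft1* was at 26.2 ± 7.20 (SD, n = 7), *Sqle* at 24.1 ± 6.93, *Cyp51* at 15.0 ± 3.52, *Hmgcs1* at 12.8 ± 4.90, *Lss* at 3.49 ± 0.635 and *Idi1* at 1.67 ± 1.15 CPM per kilobase. The means of *Fdft1* and *Sqle* lay closer together than their SDs, as did those of *Cyp51* and *Hmgcs1*. The genes were read in the same libraries, and their differences within a library were not tested. In the adults the order was *Sqle* at 32.4 ± 1.50 (SD, n = 2), *Fdft1* at 27.9 ± 2.05, *Hmgcs1* at 26.6 ± 1.52, *Cyp51* at 16.3 ± 2.14 and *Lss* at 8.09 ± 0.689 CPM per kilobase, with *Idi1* again below these. *Hmgcs1* thus stood beside *Cyp51* in the embryo and beside *Fdft1* in the adult. By mean CPM per kilobase among the 19371 genes tested, *Sqle* had rank 3112 in the embryos and 1748 in the adults, and *Lss* ranks 9235 and 6876. These levels and ranks are not corrected for the trend of log2 fold change with transcript length, described below. *Fdps* is left out of this order for the reason given above.

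**Figure D2:**
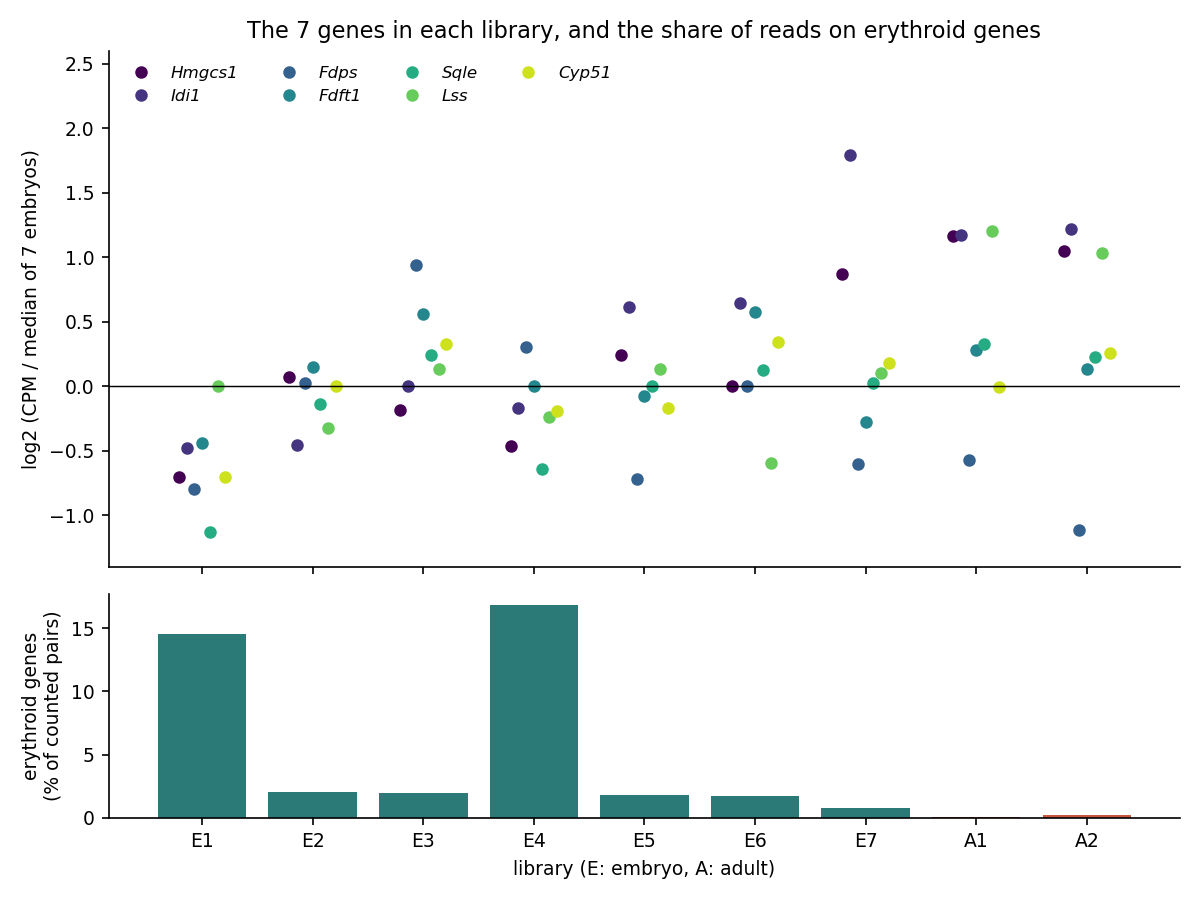
Upper panel, log2 ratio of each gene’s CPM to its median over the 7 embryos, in each embryo (E) and adult (A) library. Lower panel, percent of counted read pairs on the 8 erythroid genes, which was 14.6% in embryo 1 and 16.8% in embryo 4. Embryo 1 has the lowest embryo value of 6 of the 7 genes.

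The 7 genes differed in how they varied among the embryos. Embryo 1 had the lowest embryo value for 6 of the 7, all but *Lss*. It was the lowest embryo for 27.4% of the 12744 genes that averaged 100 or more read pairs, which do not include *Fdps*. Of all 22 enzymes it was the lowest embryo for 12 and the highest for 3, *Mvk*, *Pmvk* and *Tm7sf2*. Embryo 4 was below the embryo median for 5 of the 7. The summed level of the 7 genes was 183 CPM in embryo 1 and 241 CPM in embryo 4, 287 to 359 CPM in the other embryos, and 405 and 388 CPM in the adults. Embryos 1 and 4 were also the libraries rich in globin RNA and those with the largest shares of unmapped pairs, 10.3% and 4.74%. When the 8 erythroid genes were taken out before scaling, an alternative chosen after seeing the data, *Hmgcs1* (adjusted p = 0.022) and *Lss* (−1.16, adjusted p = 0.00223) passed as before.

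Embryo 7 was the highest embryo for *Hmgcs1* and *Idi1*, embryo 3 for *Sqle*, *Fdps* and *Lss*, and embryo 6 for *Fdft1* and *Cyp51*. The coefficient of variation among embryos was 68.6% for *Idi1* and 38.1% for *Hmgcs1*, above the median of 30.5% over the same 12744 genes. Without embryo 7, an alternative chosen after seeing the data, these were 35.8% and 23.3%, and the median was 28.4%. With all 7 embryos it was 28.8% for *Sqle*, 27.5% for *Fdft1*, 23.4% for *Cyp51* and 18.2% for *Lss*. Only 8.61% of those genes varied less among embryos than *Lss*. *Fdps*, which averaged fewer read pairs, varied by 47.3%.

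The other 15 enzymes of the pathway were set beside the 7. Of these, 7 were higher in the embryo, 2 were higher in the adult and 6 did not pass, and their median log2 fold change was 0.62. All 7 that were higher in the embryo had every embryo above both adults. *Acat2*, the thiolase that makes acetoacetyl-CoA ahead of *Hmgcs1*, was at 74.6, 91.8 and 137 CPM (lowest, median and highest) in the embryos and at 16.0 and 13.9 CPM in the adults. Its log2 fold change was 2.71 (SE 0.33, adjusted p = 2.17e-05). Of its words of 75 bases, 40.7% also occur in its neighbour and copy *Acat3* or in *Tcp1*, so its count is uncertain. The kinase *Mvk* (2.08, adjusted p = 0.000498) and the decarboxylase *Mvd* (1.63, adjusted p = 0.00125) turn mevalonate towards isopentenyl diphosphate and had higher levels in the embryo. So did the sterol reductase *Tm7sf2*, which acts straight after *Cyp51* (1.97, adjusted p = 0.000568).

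The kinase *Pmvk* (0.80, adjusted p = 0.0323) and the reductase *Lbr* (0.71, adjusted p = 0.0358) had smaller differences in the same direction. Neither passed with library size alone as the scale, with no filter on low counts (adjusted p = 0.062 and 0.0872) or with either adult left out. *Pmvk* also did not pass without embryo 2 (adjusted p = 0.0503) or embryo 5 (adjusted p = 0.0528), nor *Lbr* without embryo 5 (adjusted p = 0.0537), with the unstranded count (0.42, adjusted p = 0.418) or with the replicate block (0.48, adjusted p = 0.373). The desaturase *Sc5d* was higher in the adult, with 11.0, 15.5 and 27.9 CPM (lowest, median and highest) in the embryos and 31.9 and 35.8 CPM in the adults, a log2 fold change of −0.92 (SE 0.32, adjusted p = 0.0257). It did not pass after the length and GC correction (0.14), without adult 1 (−1.02, adjusted p = 0.0888) or without adult 2 (−0.84, adjusted p = 0.165), and the adjusted p-value was 0.0601 without embryo 3 and 0.0602 without embryo 4. The 6 that did not pass, among them *Ggps1*, *Ebp* and *Dhcr7*, had log2 fold changes from −0.64 to 0.62. Without embryo 7, *Ggps1* (−0.80, adjusted p = 0.0291) and *Ebp* (0.72, adjusted p = 0.0469) passed, as did *Nsdhl* without embryo 1 (0.65, adjusted p = 0.0422). *Ggps1* also passed with the replicate block (−1.15, adjusted p = 0.0288), and in the opposite direction with the length and GC correction and without embryos 1 and 4 (0.56, adjusted p = 0.0229). Of all 22 enzymes, 7 (31.8%) were higher in the embryo and 4 (18.2%) in the adult, beside 24% and 27.4% of all genes.

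**Figure D3:**
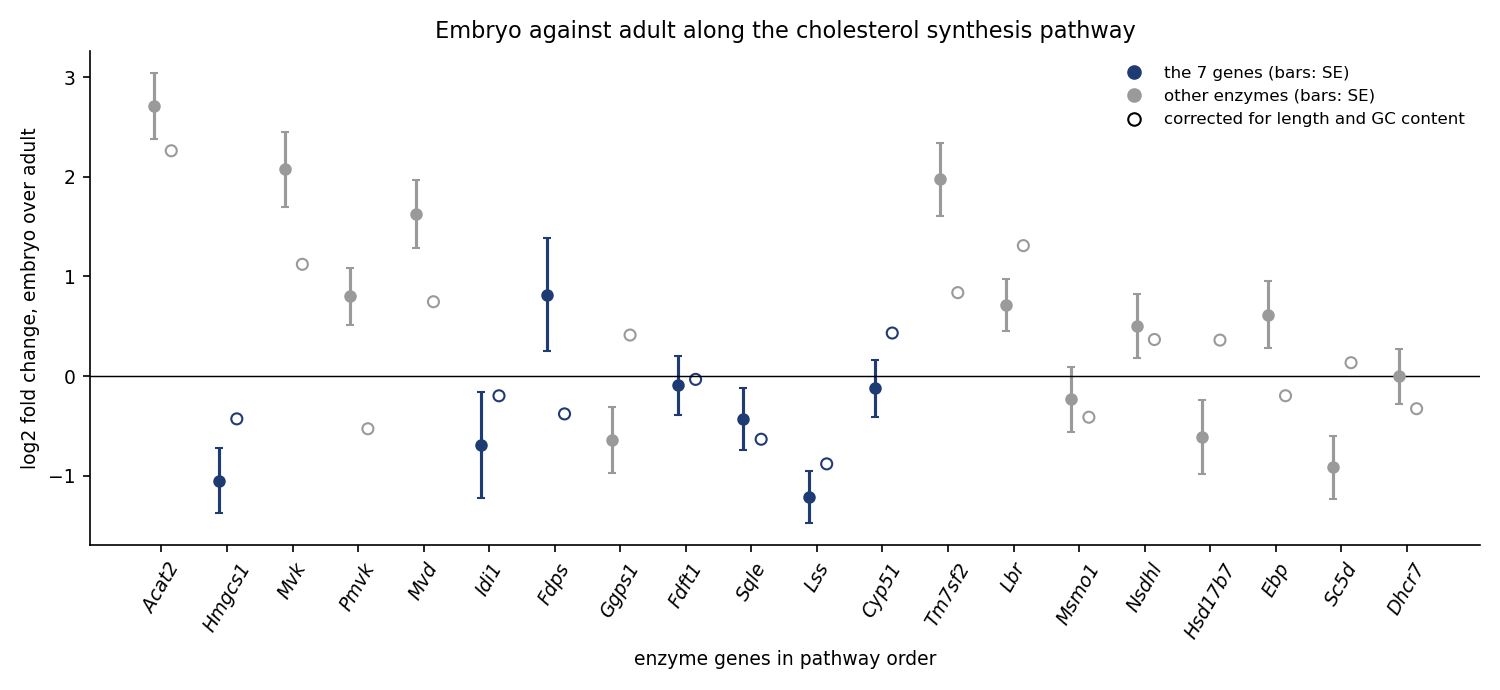
Log2 fold change, embryo over adult, of enzyme genes in pathway order, with bars for the SE (filled points) and after correction for transcript length and GC content (open points). *Acat2* stands highest at 2.71 and *Lss* lowest at −1.21, and *Fdps*, *Cyp51*, *Pmvk*, *Ggps1*, *Hsd17b7*, *Ebp* and *Sc5d* change sign with the correction.

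The differences followed transcript length. Across all genes tested, the median log2 fold change fell from 1.60 in the decile with the shortest transcripts (median 571 bp) to −1.39 in that with the longest (median 7578 bp). Across the 22 enzymes the Spearman correlation of transcript length with log2 fold change was −0.713, beside −0.398 across all genes, where genes are not independent replicates. Of the 9 enzymes with a transcript under 2666 bp, the median of all genes tested, 5 were higher in the embryo and 0 in the adult (also 0 at an unadjusted p-value below 0.05 and in DESeq2). The 13 longer ones had 2 higher in the embryo and 4 in the adult. Over all genes the shares were 34.6% and 14.7% for shorter and 13.4% and 40.0% for longer transcripts. Of the 7 genes, *Fdps* alone, at 1382 bp, has a transcript under that length. *Lss* is the longest at 4667 bp.

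Among the embryos, the library of embryo 7 had such a split. It was the highest embryo for 6 of the 22 enzymes, with transcripts of 3027 to 4787 bp, among them *Hmgcs1* and *Idi1*, and the lowest for 7, with transcripts of 1194 to 2815 bp. These numbers lie near its shares of the 12744 genes, 23.0% highest and 21.3% lowest. In that library the median log2 ratio to the embryo median was −0.60 for the shortest and 0.43 for the longest decile of those genes. In the other embryos the longest decile was at −0.24 to 0, and the shortest at −0.19 to 0.54. In the adults these medians were −1.79 and −1.85 for the shortest and 1.49 for the longest decile in both. The part of library preparation in this trend was not tested, and it cannot be told apart from stage.

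With the correction for length and GC content made in every library, the correlation across the 22 enzymes was −0.0017 and that across all genes 0.0498. *Acat2* (2.26), *Mvk* (1.12), *Mvd* (0.75), *Tm7sf2* (0.84) and *Lbr* (1.31) were still higher in the embryo, and *Lss* (−0.88) was still higher in the adult. *Sqle* then passed in the same direction as *Lss*, and *Pmvk* passed in the opposite direction to before (−0.53, adjusted p = 0.0316). Of the other 15 enzymes, 6 were then higher in the embryo and 1 in the adult. The median log2 fold change was −0.38 for the 7 genes and 0.37 for the other 15 enzymes, beside −0.15 over all genes.

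**Figure D4:**
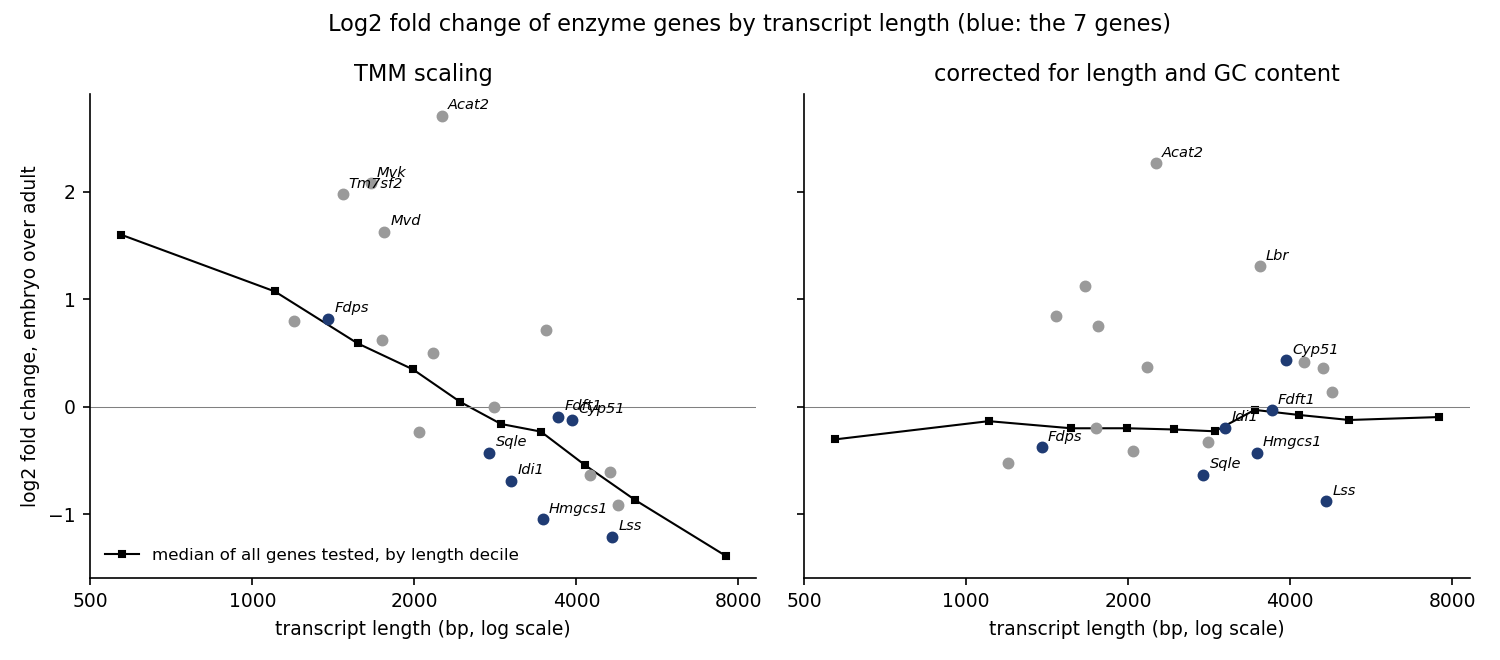
Log2 fold change, embryo over adult, of enzyme genes against transcript length in bp (log axis), before (left) and after (right) correction for length and GC content. Blue points are the 7 genes, and the line joins the medians of all genes tested by length decile, from 1.60 to −1.39 on the left. *Lss* lies below the line in both panels.

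Genes that sense and control sterol synthesis were counted next, and the shares of all genes to set beside this and the later lists are 24% higher in the embryo and 27.4% in the adult. Of 13 tested, 0 were higher in the embryo (also 0 at an unadjusted p-value below 0.05 and in DESeq2) and 4 (30.8%) in the adult (5 at an unadjusted p-value below 0.05 and 5 in DESeq2), with a median log2 fold change of −0.46. *Insig1*, which holds the SREBP complex in the endoplasmic reticulum and is itself a target of SREBP, was at 11.2, 24.9 and 29.8 CPM (lowest, median and highest) in the embryos and at 112 and 121 CPM in the adults. Every embryo lay far below both adults, with a log2 fold change of −2.32 (SE 0.29, adjusted p = 2.26e-05) that was −2.45 after the length and GC correction. Its homologue *Insig2* was at −1.33 (adjusted p = 0.00597), and at −1.24 (adjusted p = 0.0623) without adult 2. *Srebf2*, which encodes SREBP-2, was at −0.66 (adjusted p = 0.0355), but at −0.26 (adjusted p = 0.266) after that correction and −0.54 (adjusted p = 0.075) without embryos 1 and 4. Nor did it pass without adult 1 (adjusted p = 0.152), adult 2 (0.163), embryo 1 (0.0577), embryo 4 (0.0748) or embryo 6 (0.064), with no filter on low counts (0.0756) or with the replicate block (0.163). The fourth, named after its values were seen, was the protease gene *Mbtps2* (−1.01, adjusted p = 0.0188). It was at −0.11 (adjusted p = 0.727) after the length and GC correction and did not pass without adult 1 (adjusted p = 0.0858) or adult 2 (adjusted p = 0.124). *Srebf1* (−0.46, adjusted p = 0.157) and the escort gene *Scap* (−0.59, adjusted p = 0.0576) did not pass, though *Scap* did in DESeq2 (adjusted p = 0.0279), with size factors (0.0363) and with at least 10 counts in every library (0.0299).

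Of 15 genes for the uptake and transport of cholesterol, 5 (33.3%) were higher in the embryo and 8 (53.3%) in the adult. The lipoprotein receptor genes *Vldlr* (−3.26, adjusted p = 1.21e-06) and *Lrp8* (−2.93, adjusted p = 5.96e-05) were higher in the adult. Both passed after the length and GC correction, *Vldlr* at the smaller −1.69 (adjusted p = 0.000104) and *Lrp8* with an adjusted p-value of 6.51e-05. Of 10 tested genes for efflux, storage and oxidation, 0 were higher in the embryo (also 0 at an unadjusted p-value below 0.05 and in DESeq2) and 3 (30%) in the adult (4 at an unadjusted p-value below 0.05 and 4 in DESeq2). These were the exporter *Abca1* (−2.06, adjusted p = 0.000445, and −0.60, adjusted p = 0.122, after the length and GC correction) and, named after their values were seen, *Abcg1* (−1.49, and −0.92, adjusted p = 0.0134, after that correction) and *Soat1* (−1.65, and 0.0026, adjusted p = 0.996, after that correction).

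**Figure D5:**
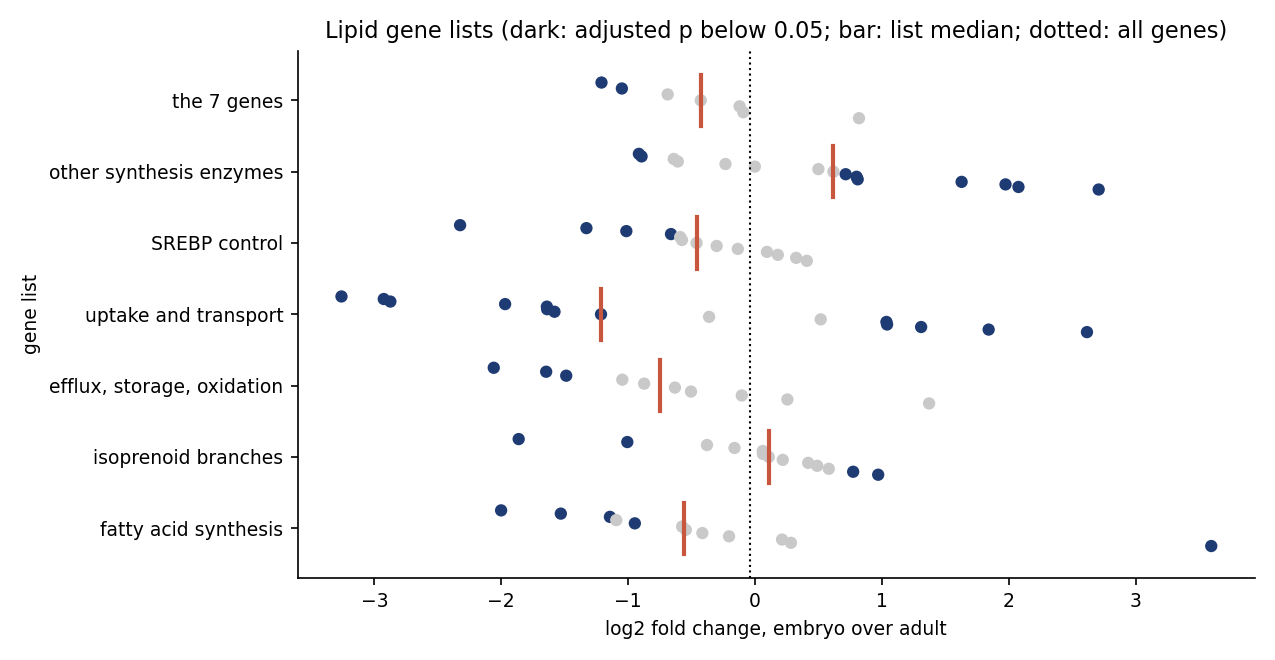
Log2 fold change, embryo over adult, of the tested genes of 7 lipid gene lists, 1 point a gene. Dark points have an adjusted p-value below 0.05 and the dotted line is the median of all genes, −0.040. Bars are list medians (−0.43 for the 7 genes, 0.62 for the other synthesis enzymes, −1.21 for uptake and transport). After the length and GC correction, not drawn here, these medians were −0.38, 0.37 and −0.65.

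The branches that leave the pathway at its isoprenoid stage, to dolichol, ubiquinone and prenylated proteins, had 2 of 13 genes (15.4%) higher in each stage. These were *Dolk* and *Fnta* in the embryo and *Nus1* and *Pggt1b* in the adult, named after their values were seen. *Dolk* (0.084, adjusted p = 0.771), *Nus1* (0.0087, adjusted p = 0.976) and *Pggt1b* (−0.25, adjusted p = 0.267) did not pass after the length and GC correction. Without adult 1 the adjusted p-values of *Dolk*, *Fnta* and *Nus1* were 0.138, 0.065 and 0.107, and without adult 2 they were 0.208, 0.0927 and 0.0665. *Dolk* and *Fnta* also did not pass with library size alone (adjusted p = 0.155 and 0.0546) or the replicate block (0.0924 and 0.0843), nor *Dolk* with no filter on low counts (0.0701). In fatty acid synthesis, which shares acetyl-CoA with the pathway, 1 of 12 genes (8.33%) was higher in the embryo, the binding protein gene *Fabp5* (3.59, adjusted p = 6.56e-06, and 2.59 after the length and GC correction). The 4 (33.3%) higher in the adult were the malic enzyme gene *Me1* (adjusted p = 4.92e-05) and, named after their values were seen, *Acaca*, *Scd1* and *Fads1*. After the correction *Acaca* (0.12, adjusted p = 0.759) and *Scd1* (−0.74, adjusted p = 0.23) did not pass. Nor did *Acaca* without adult 1 (adjusted p = 0.077) or adult 2 (0.0833), *Scd1* without adult 2 (0.0839) or *Fads1* without adult 1 (0.0707) or with the replicate block (0.0633). The isoprenoid branches and fatty acid synthesis had median log2 fold changes of 0.11 and −0.56. These medians were −0.25 and −0.094 after the length and GC correction. That of the sterol control genes was then −0.26, beside −0.15 over all genes. After the length and GC correction the genes higher in the embryo and adult were 1 and 3 of 13 for control, 4 and 8 of 15 for uptake, 0 and 3 of 10 for efflux, 1 and 4 of 13 for the branches and 3 and 2 of 12 for fatty acids, beside 20.5% and 27.9% of all genes. Without embryos 1 and 4 they were 0 and 3 for control, 5 and 8 for uptake, 1 and 3 for efflux, 2 and 2 for the branches and 1 and 5 for fatty acids, beside 26.9% and 29.9% of all genes.

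Paralogues of the pathway genes were counted separately. *Idi2*, the paralogue of *Idi1*, had 0 counts in all 9 libraries, which allows up to 0.0727 to 0.220 CPM at 3 counts a library, for counting error alone. The mitochondrial thiolase gene *Acat1* did not pass (0.095, adjusted p = 0.798), but was higher in the embryo after the length and GC correction (0.52, adjusted p = 0.0493), also with embryos 1 and 4 left out (0.64, adjusted p = 0.00483).

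Markers of other cells also differed between the stages. Of 6 mesenchymal genes, 4 were higher in the embryo, with *Col3a1* at 243 to 1067 CPM against 118 and 69.6 CPM in the adults, and of 6 endothelial genes 3 were. Of 6 macrophage genes 2 were higher in the embryo and 1 in the adult, and of 8 proliferation genes 6 were higher in the embryo, among them *Birc5* (3.43, adjusted p = 3.3e-06, and 1.94 after the length and GC correction). Of the 8 hormone lineage genes 7 were higher in the adult, and *Tshb* was the one that did not pass. After the length and GC correction the 2 macrophage genes no longer passed and 2 were higher in the adult, 4 endothelial genes were higher in the embryo and 1 in the adult, 8 hormone genes were higher in the adult, and the counts for mesenchyme and proliferation were as before. The neural and posterior lobe genes then had 2 higher in the embryo and 3 in the adult. The part of these cell types in the levels of the 7 genes was not tested.

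The genes outside all lists whose pattern over the 9 libraries was nearest to the mean of the 7, by root-mean-square distance of centred log2 CPM among 12604 genes, were *Spata5* (0.0530), *Zfp263* (0.0744), *Cldn12* (0.0812), *Fahd1* (0.106) and *Pcnx4* (0.117). The median distance over those genes was 0.664. Of the 7 genes themselves, *Sqle* (0.181) and *Cyp51* (0.193) were nearest to their common mean, and *Idi1* (0.494) and *Fdps* (0.610) farthest. The lowest level of *Spata5* was 9.38 CPM, in embryo 1, the highest of an embryo was 19.3 CPM, in embryo 7, and the adults had 21.4 and 20.5 CPM. Like *Hmgcs1*, it was lowest in embryo 1 and highest in the adults, but its log2 fold change did not pass (−0.51, adjusted p = 0.163). After the length and GC correction *Fahd1* (−0.39 before, −1.32 after, adjusted p = 0.00142) and *Zfp263* (−0.43 before, −0.44 after, adjusted p = 0.0441) were higher in the adult, and *Cldn12* and *Pcnx4* changed sign without passing.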

How the data were processed

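The authors made directional poly(A) libraries from 50 ng of RNA, read 75 bp pairs, and, per the labels, used Trimmomatic 0.39, STAR 2.7.5b and mm10. The deposited files hold STAR’s raw count of read pairs for 55450 genes of Ensembl 96 (GENCODE M21), not normalised. Unmapped, multimapping, featureless and ambiguous pairs were left out of library sizes, which left 59.7% to 84.0% of pairs. The count on the strand of the kit was used.

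Counts were scaled by TMM and tested with edgeR 4.0.16 (R 4.3.3), quasi-likelihood, stage as the only term, with Benjamini–Hochberg adjustment over the 19371 genes averaging 5 or more counts. The study’s thresholds served for calls, 0.05 for the adjusted p-value and, as a second step, a fold change of more than 4. Length and GC content were those of the longest transcript marked principal, or else the longest. The correction used splines with 4 degrees of freedom on genes averaging 50 or more counts. The fitting was tested on simulated data. Words of 75 bases were compared with all GENCODE M21 transcripts. Tables and plots were made in Python 3.11.15 with matplotlib 3.10.9, scipy 1.17.1, pandas 2.3.3 and numpy 2.4.6.

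Alternatives were DESeq2 1.42.0, its size factors, library size alone, 3 other filters (edgeR’s own, none, at least 10 counts in every library), the unstranded count, a test against a fold of 4, the correction, a replicate block and libraries left out. The replicate block was fitted on replicates 1 and 2 of each stage alone. Taking out erythroid genes, and the correction without embryos 1 and 4, were chosen after seeing the data, as was variation without embryo 7. The members and lists were chosen with earlier results of these data known. Named genes are the members, other enzymes, *Srebf1*, *Srebf2*, *Scap*, *Insig1*, *Insig2*, *Abca1*, *Idi2*, *Acat1*, the markers, the 5 nearest in pattern (log2 of CPM plus 0.5) and, of each other list, the 2 genes that differed most among those past both thresholds and averaging 100 or more counts.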

Additional observations from a re-analysis of the deposited data

Results flagged for a closer look

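In the 7 embryos, 77 quantities were examined for a library far from the others, and 7 had a gap to the nearest library, divided by the range, above the 95% critical value of Dixon’s test. Chance gives about 1 in 20. Of the 7 genes, only *Idi1* was among them, at 12.4 CPM in embryo 7 against 2.56 to 5.60 CPM in the others. Also in embryo 7, *Vldlr* was at 6.71 CPM (others up to 4.73 CPM) and *Nus1* at 57.7 CPM (others up to 34.3 CPM). In embryo 1, *Gh* was at 1.90 CPM (others up to 0.366 CPM) and *Scd1* at 26.5 CPM (others up to 11.3 CPM). In embryo 2 the neural and posterior lobe markers summed to 379 CPM (others up to 228 CPM) and the macrophage markers to 255 CPM (others up to 167 CPM).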

How the results depend on the processing

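Under 12 alternatives other than leaving out 1 library, 2 of the 7 genes passed each time, though with the length and GC correction these were *Lss* and *Sqle* in place of *Lss* and *Hmgcs1*. The correction gave log2 fold changes of −0.43 for *Hmgcs1*, −0.63 for *Sqle*, −0.38 for *Fdps*, 0.43 for *Cyp51*, −0.53 for *Pmvk*, 0.41 for *Ggps1*, 0.36 for *Hsd17b7*, −0.20 for *Ebp*, 0.14 for *Sc5d*, 0.16 for *Cldn12*, 0.16 for *Pcnx4*, 0.0026 for *Soat1*, 0.0087 for *Nus1* and 0.12 for *Acaca*. Without embryos 1 and 4 in addition, chosen after seeing the data, it gave −0.23 for *Hmgcs1*, −0.46 for *Sqle*, 0.064 for *Idi1*, −0.26 for *Fdps*, 0.0075 for *Fdft1*, 0.53 for *Cyp51*, −0.48 for *Pmvk*, 0.56 for *Ggps1*, 0.55 for *Hsd17b7*, −0.35 for *Ebp*, 0.29 for *Sc5d*, 0.25 for *Cldn12*, 0.23 for *Pcnx4*, 0.21 for *Soat1*, −0.018 for *Dolk*, 0.041 for *Nus1* and 0.28 for *Acaca*. Leaving out embryos 1 and 4 alone gave 0.039 for *Fdft1*, 0.045 for *Cyp51* and 0.069 for *Dhcr7*. *Dhcr7*, at −0.0018, was also 0.00043 with no filter, 0.031 unstranded and 0.041 without erythroid genes. *Acat1* was −0.10 with library size alone. The replicate block was fitted on replicates 1 and 2 of each stage alone, numbers that only name animals (deviations correlated at 0.0348 and 0.0279 across genes). It tested 19897 genes, so the block and the libraries changed together. In that fit *Acat1* was −0.23, *Hmgcs1* −1.37, *Lss* −1.23, and 7390 genes passed against 9948. Genes past both thresholds numbered 5001, but 2634 with at least 10 counts in every library, a filter that tests fewer genes, and 1744 when tested against a fold of 4. With each library left out in turn, 5839 to 10669 genes passed in all, 3683 to 5290 with the fold threshold, 1 to 3 of the 7 genes and 4 to 11 of the other 15 enzymes. Without adult 1 or adult 2, 1 of the 7 passed (*Lss*), and *Hmgcs1* had adjusted p-values of 0.0972 and 0.0688. There the lone adult is assumed to vary like the embryos. The ranges were −1.24 to −0.90 for *Hmgcs1*, −0.49 to −0.27 for *Sqle*, −1.09 to −0.51 for *Idi1*, 0.56 to 1.10 for *Fdps*, −0.18 to 0.028 for *Fdft1*, −1.31 to −1.09 for *Lss*, −0.27 to 0.017 for *Cyp51* and −0.11 to 0.085 for *Dhcr7*. The median of all genes moved by −0.22 with library size alone, −0.21 with the block and its fewer libraries, and −0.11 with the correction. The cause of these changes was not tested. With 2 adults, and 23 to 138 read pairs for *Fdps*, small differences are not detectable.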
